A study of Sus scrofa with 4 samples.

Results

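This report describes the genes whose reads were found in LGR5-high epidermal cells of the pig and were absent, or nearly absent, from LGR5-negative cells. A gene was included if it had 3 or fewer counts in both LGR5-negative libraries and 30 or more counts in both LGR5-high libraries, and 93 of 29837 named genes met this rule. The data are RNA-seq libraries of sorted epidermal cells from 2 juvenile pigs named 88R and 95R, and each pig gave 1 library of LGR5-high cells and 1 of LGR5-negative cells. Both pigs belonged to a line that carries H2B-GFP, a fluorescent histone, knocked into exon 1 of 1 LGR5 allele, so GFP is driven by the LGR5 promoter while the other allele still makes LGR5. The line was founded by nuclear transfer from clonal edited fetal fibroblasts, and the labels do not say whether these 2 pigs were cloned animals or their progeny. Cells from hair and epidermis peeled off the dermis were sorted on GFP, so both populations share the genotype, the enzyme digestion and the live/dead gate. They differ in GFP signal, which also persists for a time in the daughters of LGR5 cells because the histone is stable.

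LGR5 is a receptor for R-spondins that strengthens WNT signalling, and it marks stem cells in the lower bulge and lower outer root sheath of the hair follicle. The follicle cycles between growth, regression and rest, and its epithelial cells exchange signals such as SHH, WNT and FGF ligands with the dermal papilla beneath them. LGR5-negative cells include those of the interfollicular epidermis, whose keratinocytes make the skin barrier.

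The counts that chose the 93 genes are the contrast between LGR5-high and LGR5-negative, so the difference between the populations is given for these genes as a description without a test. The 4 libraries held between 30696803 and 32463362 counts on named genes. In pig 88R, LGR5 itself had 4551 counts in LGR5-high and 36 in LGR5-negative, and in pig 95R 6224 and 109, so the sort labels held in both animals. Of 10 tested markers of the lower outer root sheath and hair germ, 7 were higher in LGR5-high and 0 were lower, with a median log2 fold change of 4.36. Of 6 tested markers of interfollicular epidermis, 0 were higher and 4 were lower, with a median of -3.22. Markers of the inner root sheath and hair shaft went both ways, with 7 of 11 tested higher in LGR5-high and 3 lower (median 1.77). Among them KRT25 had 25374 and 17695 counts in LGR5-high against 1504 and 1733, and KRT35 had 2440 and 1365 against 9686 and 7670. Calls on genes outside the 93 are from edgeR's quasi-likelihood test on all 15980 genes that passed its filter on low counts, at an adjusted p-value under 0.05. That test called 3632 genes higher in LGR5-high (22.7%) and 3508 lower (22.0%), with a median log2 fold change of 0.02 over all tested genes. Scaling by library size alone, without the TMM correction for composition, moved that median to 0.24 and gave 5473 higher and 2326 lower genes (70.2% of calls higher, against 50.9%), and upper quartile scaling gave 4292 and 2929, so medians of gene groups are set beside the median of all genes. All 93 genes were among the higher ones, a count that uses the same contrast as the rule. Both LGR5-high libraries were above both LGR5-negative libraries for 39.2% of the tested genes, and for all 93 genes by the rule. In pig 88R alone 238 genes met the rule, in pig 95R alone 165, and 93 in both.

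The name "detected only in LGR5-high cells" held strictly for 18 of the 93 genes, which had 0 counts in both LGR5-negative libraries. The other 75 had 1 to 3 counts in at least 1 LGR5-negative library, and 49 had counts in both. Summed over the 93 genes, pig 88R had 8392 counts in LGR5-high and 112 in LGR5-negative, and pig 95R had 8145 and 130. Levels are given as CPM, which are counts scaled to a common library size and not divided by transcript length, so they are not ranked between genes here. On the CPM scale the LGR5-negative sum was 1.61% of the LGR5-high sum in pig 88R, and it was 1.74% in pig 95R. For LGR5 these shares were 0.954% and 1.91%. In bulk libraries such as these, fewer cells that express a gene and less RNA of it in each cell cannot be told apart.

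These were mostly genes of low count. The median was 58 counts in the LGR5-high library of pig 88R and 64 in that of pig 95R, and together the 93 genes took up 0.0265% of either library. Under 100 counts were seen in both LGR5-high libraries for 69 genes, and 10 genes had 100 or more in both. The mean LGR5-high level of the 93 genes lay between 0.935 and 19.5 CPM, with a median of 1.89. The floor of a library was set at 3 counts, which correspond to 0.105 CPM in LGR5-negative of pig 88R and 0.0993 CPM in that of pig 95R. A fold change against 0 counts is therefore a lower bound, set by the mean of these floors (0.102 CPM). It was at least 190-fold for FGF5 and at least 12.2-fold for KCNB2, the extremes among the 18 genes. Where the LGR5-negative libraries held 1 to 3 counts, the ratio of the pooled counts is given with its 95% interval (exact, from the binomial distribution). Floors and intervals cover counting error only, since reads amplified by PCR without molecular identifiers are not independent molecules.

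**Figure D1:**
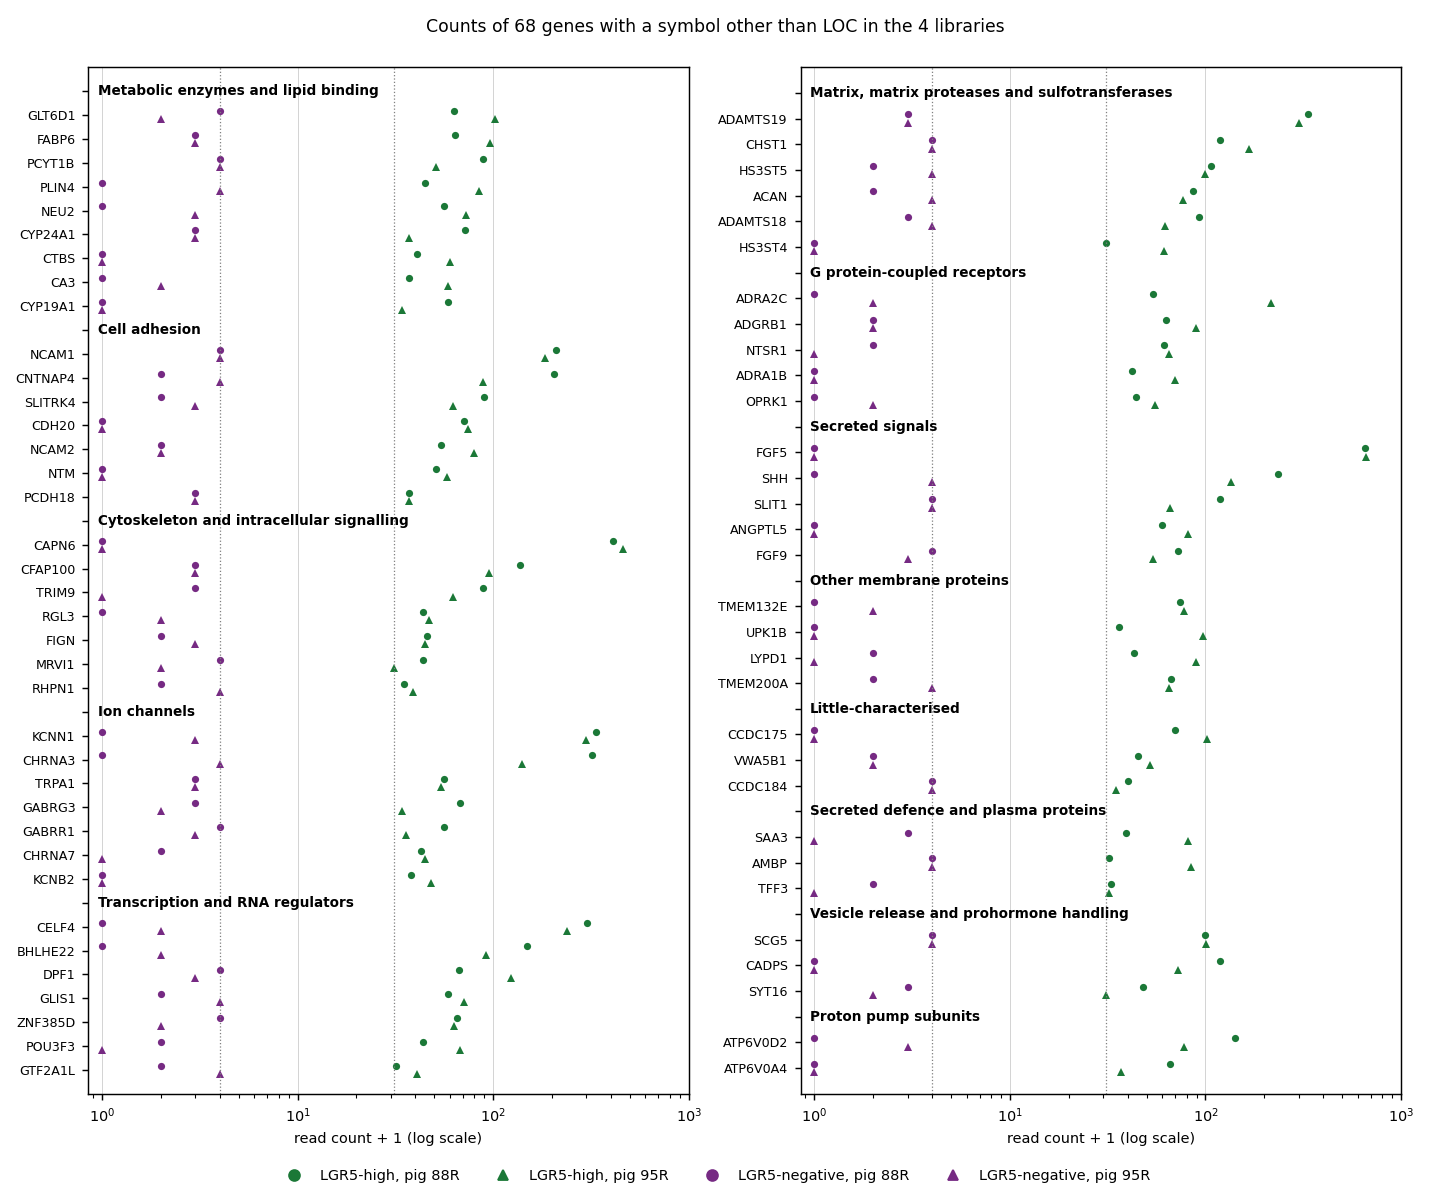
Read count + 1 (log scale) of 68 of the 69 genes with a symbol other than LOC in each library, grouped by class, with green for LGR5-high, purple for LGR5-negative, circles for pig 88R and triangles for pig 95R. Dotted lines mark the thresholds of 3 and 30 counts, between which no point can lie, and FGF5, with 653 and 659 counts, lies farthest to the right.

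The thresholds cut through a continuum. Just inside the LGR5-high threshold were SYT16 with 47 and 30 counts, MRVI1 with 43 and 30, HS3ST4 with 30 and 60 and LOC110255947 with 39 and 30 (pigs 88R and 95R). Just outside it were LOC110257659 with 29 and 29 counts, LOC100512146 with 29 and 28, LOC110261780 with 31 and 28, and the potassium channel gene KCNQ3 with 28 and 51. At the LGR5-negative threshold, 8 of the 93 genes had 3 counts in both libraries, among them NCAM1, SCG5, SLIT1 and CHST1. LOC106507343, with 222 and 130 LGR5-high counts, was left out by 4 LGR5-negative counts in pig 95R, as was FAM19A5, a secreted neuropeptide-like protein gene with 167 and 146 LGR5-high counts. NRG3, an ERBB4 ligand gene with 105 and 77 LGR5-high counts, was left out by 4 counts in pig 88R. The lower of the LGR5-high counts was 30 to 39 for 28 of the 93 genes, and 52 further genes would enter at 20 to 29 counts. With a highest LGR5-negative count of 4, 30 further genes would enter.

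By gene class, 69 of the 93 genes had a symbol and 24 had a LOC placeholder, the name RefSeq gives to a gene without an assigned symbol. All 69 were protein coding. They fell into 13 classes by the known role of the protein, from 2 proton pump subunits to 9 metabolic enzymes and lipid-binding proteins. None of them was a keratin gene, but some keratin symbols, such as KRT14, KRT17 and KRT75, were missing from the named genes. Others were kept out by their LGR5-negative counts, such as KRT6A with 57791 and 61464 counts against 1911 and 3354. Next in size were ion channels (8 genes), then cell adhesion, cytoskeleton and intracellular signalling, and transcription and RNA regulators (7 each). Matrix genes numbered 6, and G protein-coupled receptors and secreted signals 5 each. The share of each class among all named genes was not counted, so these numbers do not show which classes are over-represented.

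**Figure D2:**
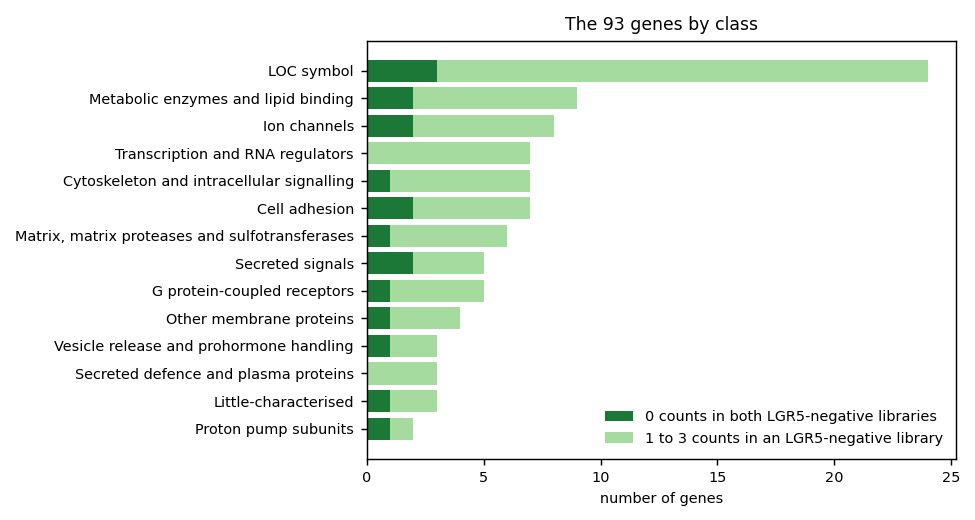
Number of the 93 genes in each class, with genes at 0 counts in both LGR5-negative libraries in dark green and genes with 1 to 3 counts in at least 1 of them in light green. The 24 LOC genes form the largest bar, 3 of them at 0 counts, and 15 of the 69 genes with a symbol are at 0.

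Among the secreted signals, FGF5 had 653 and 659 counts in LGR5-high (pigs 88R and 95R) and 0 in both LGR5-negative libraries. This is a secreted fibroblast growth factor that ends the growth phase of the hair cycle, and animals that lack it grow long hair. Its level was 19.5 ± 0.674 CPM (SD, n = 2 pigs), and the ratio of pig 95R to pig 88R was 1.05 (95% interval 0.941 to 1.17), so the pigs did not differ beyond counting error. SHH, the hedgehog ligand that drives growth of the follicle epithelium, had 233 and 134 LGR5-high counts, with 0 and 3 in LGR5-negative. Its pooled counts were 107-fold higher in LGR5-high (95% interval 36.2 to 519), and pig 88R had the higher level of the pair. FGF9, an FGF ligand known from hair follicle formation in wounds, had 71 and 53 counts against 3 and 2. SLIT1, a secreted guidance ligand of ROBO receptors, had 118 and 65 counts against 3 and 3. ANGPTL5, a secreted angiopoietin-like protein, had 59 and 80 counts against 0 and 0. For all 5 secreted signals the lowest LGR5-high count, 53, was far above the highest LGR5-negative count, as the rule requires.

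The rest of the FGF family was read from a list of all 22 FGF genes. Of the 9 other genes that could be tested, 4 were higher in LGR5-high and 0 were lower, with a median log2 fold change of 1.33. FGF18, an FGF ligand known from resting follicles, had 1651 and 1263 counts in LGR5-high and 26 and 13 in LGR5-negative (log2 fold change 6.01 with a standard error of 0.309, edgeR adjusted p = 1.15e-04). FGF1 and FGF2 had log2 fold changes of 2.67 and 2.47. The fourth, FGF14, belongs to a branch of the family that stays inside the cell and had 18 and 10 counts against 0 and 1, and its call was lost without LGR5-negative of pig 88R (edgeR adjusted p = 0.0601) and with DESeq2 (adjusted p = 0.0508). FGF7 and FGF10, ligands that dermal cells usually supply to the epithelium, had 5 or fewer counts in each library. In the SLIT family, SLIT2 and SLIT3 were also higher, with log2 fold changes of 1.62 and 2.28.

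Among the G protein-coupled receptors, ADRA2C, an inhibitory adrenergic receptor, had 53 and 214 LGR5-high counts and 0 and 1 LGR5-negative counts. Pig 95R was thus far above pig 88R, by 4.20-fold (95% interval 3.10 to 5.79), the highest ratio among the 93 genes. ADGRB1, an adhesion receptor known for the uptake of dying cells, had 62 and 88 counts against 1 and 1. The neurotensin receptor gene NTSR1 had 60 and 64 counts against 1 and 0. The adrenergic receptor gene ADRA1B had 41 and 69 against 0 and 0, and the kappa opioid receptor gene OPRK1 had 43 and 54 against 0 and 1. The interval of the ratio of pig 95R to pig 88R also lay above 1 for ADGRB1 and ADRA1B, and it held 1 for NTSR1 and OPRK1. ADRA2A, a close relative of ADRA2C, had 9354 and 7817 LGR5-high counts against 31 and 32 (log2 fold change 7.88 with a standard error of 0.141, edgeR adjusted p = 2.39e-05) and missed the rule by its LGR5-negative counts. Of the other opioid receptor genes, OPRD1 and OPRL1 were tested and neither was called, but OPRL1 was higher with the pig as a replicate block (edgeR adjusted p = 0.0214).

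Among the ion channels, KCNN1, a potassium channel opened by calcium, had 334 and 298 counts in LGR5-high and 0 and 2 in LGR5-negative, a pooled ratio of 275 (95% interval 75.9 to 2278). CHRNA3, the alpha-3 subunit of nicotinic acetylcholine receptors, had 318 and 140 counts against 0 and 3. Pig 88R was above pig 95R by 2.18-fold (95% interval 1.78 to 2.68). TRPA1, a sensor of irritants, had 55 and 53 counts against 2 and 2, and lies next to the voltage-gated potassium channel gene KCNB2 (37 and 47 against 0 and 0) on the chromosome. CHRNA7, a subunit that forms nicotinic receptors by itself, had 42 and 44 counts against 1 and 0. The GABA receptor subunit genes GABRG3 and GABRR1 had 67 and 33, and 55 and 35 counts, with at most 3 in LGR5-negative.

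Nicotinic receptors are pentamers, and the genes of the alpha-3, alpha-5 and beta-4 subunits lie side by side. CHRNB4, on the one side of CHRNA3, had 437 and 163 counts in LGR5-high and 23 and 16 in LGR5-negative (log2 fold change 3.72 with a standard error of 0.553, edgeR adjusted p = 0.00361). CHRNA5, on the other side, had 38 and 23 counts against 0 and 0, and was called higher by that test, but not by DESeq2 with the pig as a replicate block (adjusted p = 0.157). The ratio of pig 95R to pig 88R in LGR5-high was 0.458 for CHRNA3, 0.388 for CHRNB4 and 0.630 for CHRNA5, and for CHRNA5 its interval held 1. LYPD1, a membrane-anchored protein that modulates nicotinic receptors, went the other way between the pigs, with 42 and 88 counts against 1 and 0. Over all nicotinic subunit genes, 3 of the 4 tested genes outside the 93 were higher and 0 lower, and 6 of 16 had 3 or fewer counts in every library. Without LGR5-high of either pig or LGR5-negative of pig 95R, 2 were higher. Over the GABA type A receptor genes, 4 of 7 were higher and 1, GABRA2, was lower, with a median log2 fold change of 1.07. Without LGR5-high of either pig 2 were higher and 0 lower, without LGR5-negative of pig 88R 2 and 3, without LGR5-negative of pig 95R 3 and 0, and with the replicate block 4 and 2. GABRP had 864 and 1002 counts against 92 and 81. KCNN2, a relative of KCNN1, was higher with a log2 fold change of 3.50.

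Among the cell adhesion genes, NCAM1, a homophilic adhesion molecule, had 208 and 183 counts against 3 and 3. Its paralog NCAM2 had 53 and 79 counts against 1 and 1, so both genes of the NCAM family met the rule. CNTNAP4, a neurexin-like protein, had 204 and 88 counts against 1 and 3. Pig 88R was above pig 95R by 2.23-fold (95% interval 1.73 to 2.89), the largest excess in that direction among the 93 genes. SLITRK4, a synaptic adhesion protein, had 89 and 61 counts against 1 and 2. CDH20, a classical cadherin, had 70 and 73 counts and NTM, a membrane-anchored immunoglobulin protein, had 50 and 57, both against 0 and 0. PCDH18, a protocadherin, had 36 and 36 against 2 and 2. Among their relatives, CDH2 and CDH12 were higher with log2 fold changes of 4.44 and 5.21, and CNTNAP2 and CNTNAP1 with 2.62 and 0.75. The calls of CNTNAP2 and CNTNAP1 were lost without LGR5-high of pig 95R (edgeR adjusted p = 0.126 and 0.0574).

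Among genes for vesicle release and prohormones, SCG5, a chaperone of the convertase that matures peptide hormones, had 99 and 100 counts against 3 and 3. CADPS, which primes dense-core vesicles for release, had 118 and 71 counts against 0 and 0, at least 27.3-fold higher. SYT16, an atypical synaptotagmin, had 47 and 30 against 2 and 1. Of 21 other tested genes of vesicle priming and fusion, 3 were higher, among them CADPS2 and SYT5, and 6 lower, with a median log2 fold change of -0.21, against 0.02 over all tested genes. Without LGR5-high or LGR5-negative of pig 88R 3 were lower, and without LGR5-high of pig 95R 4. With library size only the median was 0.01, against 0.24 over all tested genes. CADPS2, the paralog of CADPS, had 406 and 342 counts against 49 and 107 (log2 fold change 2.07).

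Markers of nerve and neuroendocrine cells were read beside these classes. Of the 9 neuron markers, 3 could be tested, and 0 were called by edgeR's quasi-likelihood test and 0 by DESeq2, with 0 at an unadjusted p under 0.05. The list's summed level was 3.14 and 5.60 CPM in LGR5-high and 1.58 and 2.08 CPM in LGR5-negative. The defining neuron marker STMN2 had 1 count in all 4 libraries together, and RBFOX3 had at most 6 in any. SNAP25 had 17 and 7 counts in LGR5-high and 1 and 0 in LGR5-negative. It did not pass the filter on low counts, and without that filter it was called higher (log2 fold change 4.08, edgeR adjusted p = 0.0336). NEFL had 3 and 87 counts in LGR5-high and 4 and 14 in LGR5-negative, and it was called higher with the pig as a replicate block (edgeR adjusted p = 0.0109). It was not called without the block (edgeR adjusted p = 0.247) nor by DESeq2 with it (adjusted p = 0.411). Its log2 fold change was -1.75 without LGR5-high of pig 95R and 3.09 without that of pig 88R. Of the 93 genes, ADRA2C, LYPD1, DPF1, NCAM2 and ADGRB1 were, like NEFL, higher in LGR5-high of pig 95R, with ratios from 1.48 to 4.20. CHRNA3, CNTNAP4, GABRG3 and CADPS were lower there, with ratios from 0.449 to 0.626. The part of neurons in the counts of these genes was not tested. Among 8 Schwann cell markers, CDH19 had 0 counts in every library, and the list's sum was 235 and 211 CPM in LGR5-high and 361 and 354 CPM in LGR5-negative. A single gene, ERBB3, carried most of that sum, with 201 and 169 CPM in LGR5-high and 330 and 319 CPM in LGR5-negative. Apart from NCAM1, 1 of 5 tested Schwann markers was higher, S100B, whose call was lost without LGR5-high of pig 95R (edgeR adjusted p = 0.0724), and 2 were lower.

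Merkel cells, the touch-sensing neuroendocrine cells of the epidermis, share several genes with neurons. All 3 tested Merkel cell markers of 7 were higher in LGR5-high, and the list's sum was 20.2 and 16.6 CPM in LGR5-high and 1.02 and 1.92 CPM in LGR5-negative. CHGA, a core protein of dense-core vesicles, had 277 and 246 counts against 4 and 9 (log2 fold change 5.11), and the touch channel gene PIEZO2 had 389 and 238 against 9 and 23 (log2 fold change 4.08). CHGB had 13 and 15 counts against 2 and 3, and its call was lost without any 1 of the libraries (edgeR adjusted p between 0.0852 and 0.147). The defining transcription factor gene ATOH1 had 3 and 21 counts in LGR5-high and 0 and 2 in LGR5-negative, and the keratin gene KRT20 had 10 and 8 against 8 and 12. The ratio of pig 95R to pig 88R in LGR5-high was 0.924 for CHGA, 0.637 for PIEZO2, 1.05 for SCG5 and 0.626 for CADPS. The part of Merkel cells in the counts of the adhesion, channel and vesicle genes was not tested.

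**Figure D3:**
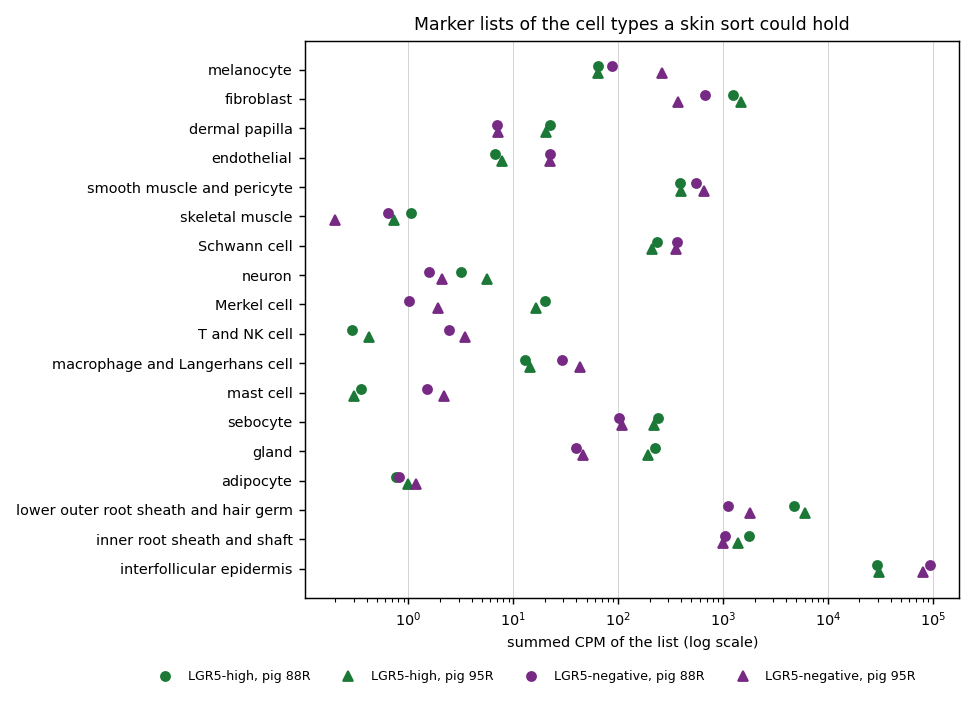
Summed CPM (log scale) of each list of cell type markers in the 4 libraries, with green for LGR5-high, purple for LGR5-negative, circles for pig 88R and triangles for pig 95R. The sums of the neuron list stay between 1.58 and 5.60 CPM, the Merkel cell list has 20.2 and 16.6 CPM in LGR5-high against 1.02 and 1.92 CPM, and the interfollicular list is highest in LGR5-negative.

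Among the matrix genes, the secreted protease gene ADAMTS19 had 334 and 299 counts in LGR5-high and 2 and 2 in LGR5-negative, a pooled ratio of 138 (95% interval 53.6 to 507). A second protease of that family, ADAMTS18, had 92 and 61 counts against 2 and 3. CHST1, which sulfates keratan sulfate, had 118 and 166 counts against 3 and 3. HS3ST5 and HS3ST4, which add the 3-O-sulfate to heparan sulfate, had 106 and 99 counts against 1 and 3, and 30 and 60 counts against 0 and 0. ACAN, which encodes the large proteoglycan aggrecan, had 85 and 76 counts against 1 and 3. The span of ACAN on the chromosome overlaps that of HAPLN3, a link protein gene for hyaluronan, which had 314 and 208 counts against 35 and 29.

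Of 15 other ADAMTS genes tested, 10 were higher and 2 lower. ADAMTS8 had 443 and 434 counts against 4 and 5 (log2 fold change 6.37) and missed the rule by its LGR5-negative counts, and ADAMTS7 and ADAMTS2 had log2 fold changes of 4.24 and 3.13. ADAMTS1 and ADAMTS4, which like ADAMTS8 belong to the proteases that cleave aggrecan-type proteoglycans, were the lower genes, with -1.26 and -1.41, and the call of ADAMTS4 was lost without LGR5-high of pig 88R (edgeR adjusted p = 0.0633). Of 11 other CHST genes, 7 were higher and 2 lower, and CHST2, a sulfotransferase of N-acetylglucosamine, reached a log2 fold change of 6.93. Apart from HS3ST4 and HS3ST5, 1 of 5 tested HS3ST genes was higher (HS3ST2, with 25 and 45 counts against 0 and 5) and 2 were lower, HS3ST3B1 and HS3ST6, with log2 fold changes of -2.22 and -1.53. The call of HS3ST2 was lost without LGR5-high of pig 95R (edgeR adjusted p = 0.126), and 3 were lower with the replicate block. Dermal markers were present beside the matrix genes. Of 9 tested fibroblast genes, 5 were lower in LGR5-high, the collagen gene COL3A1, DCN, LUM, DPT and PDGFRA, which had 4 and 3 counts in LGR5-high and 21 and 21 in LGR5-negative. The other collagen genes COL1A1 and COL1A2 and the surface protein gene THY1 were higher. The calls of COL1A1 and THY1 were lost without LGR5-high of pig 95R (log2 fold changes 1.12 and 1.39), and that of THY1 also without LGR5-high of pig 88R (1.27). The call of COL1A1 was also lost without LGR5-negative of pig 95R (log2 fold change 1.32) and with DESeq2 (adjusted p = 0.0671). Without LGR5-high of pig 95R, 1 fibroblast gene was higher and 4 were lower. COL1A1, COL1A2 and THY1 carried most of the list's sum of 1234 and 1478 CPM in LGR5-high, against 677 and 370 CPM in LGR5-negative. Of the dermal papilla list, 3 of 5 tested genes were higher, SOX2 had 3 and 5 counts against 0 and 0, and ALX4 had at most 1 count in any library. The part of these cell types in the counts of the matrix genes was not tested.

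The proton pump of endosomes and specialised acid-secreting cells, the V-ATPase, is built from subunits that often have a general and a restricted isoform. ATP6V0D2, the restricted d2 isoform known from osteoclasts, had 140 and 77 counts in LGR5-high and 0 and 2 in LGR5-negative. ATP6V0A4, the a4 isoform known from acid-secreting kidney cells, had 65 and 36 counts against 0 and 0, at least 14.6-fold higher. Both had the higher level in pig 88R, by 1.75-fold (95% interval 1.31 to 2.34) and 1.74-fold (1.14 to 2.68). Of the other 18 subunit genes tested, 2 were higher and 3 lower, with a median log2 fold change of 0.02. These counts moved with the setting, to 7 and 1 with library size only and 2 and 5 with the replicate block. They were 1 and 2 without LGR5-high or LGR5-negative of pig 88R, 1 and 1 without LGR5-high of pig 95R, and 1 and 4 without LGR5-negative of pig 95R. The general isoform genes ATP6V0D1 (1944 and 2081 against 1692 and 1857 counts) and ATP6V0A1 (1889 and 1806 against 2067 and 2083) had log2 fold changes of -0.02, not called, and -0.37, called lower but not with library size only (edgeR adjusted p = 0.199) nor without LGR5-high of pig 88R or 95R or LGR5-negative of pig 88R (between 0.0628 and 0.0789). ATP6V1B1, the subunit that goes with a4 in kidney, had 13 and 5 counts against 16 and 35 and was not called, but was lower with the replicate block (edgeR adjusted p = 0.0197). FOXI1, the transcription factor of acid-secreting cells, had 0 counts in every library. The span of ATP6V0A4 overlaps that of TMEM213, which had 586 and 556 counts against 0 and 7.

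The metabolic genes covered unrelated pathways. GLT6D1, a glycosyltransferase family gene, had 62 and 101 counts against 3 and 1. FABP6, which binds bile acids in the ileum, had 63 and 95 counts against 2 and 2. PCYT1B, an enzyme of phosphatidylcholine synthesis, had 88 and 50 counts against 3 and 3. The steroid and vitamin D enzymes among them were CYP19A1, aromatase, with 58 and 33 counts against 0 and 0, and CYP24A1, which inactivates vitamin D, with 71 and 36 against 2 and 2. Both were lower in pig 95R, with ratios to pig 88R of 0.592 and 0.528. The pig genome carries several near-identical aromatase genes, so the assignment of reads to CYP19A1 is uncertain. PLIN4, a lipid droplet protein, had 44 and 84 counts against 0 and 3, and CA3, a carbonic anhydrase of muscle and fat, had 36 and 58 against 0 and 1. The adipocyte list summed to 0.756 and 0.999 CPM in LGR5-high and 0.807 and 1.19 CPM in LGR5-negative, and the skeletal muscle list to 1.05 and 0.726 CPM and 0.632 and 0.199 CPM. NEU2, a sialidase, and CTBS, a lysosomal chitobiase, had 55 and 72, and 40 and 59 counts, with at most 2 in LGR5-negative.

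Among regulators of transcription and RNA, CELF4, an RNA-binding protein that controls splicing, had 301 and 237 counts against 0 and 1. BHLHE22, a repressor of the bHLH family, had 148 and 91 counts against 0 and 1, and DPF1, a subunit of chromatin remodelling complexes of neurons, had 66 and 123 against 3 and 2. The zinc finger gene GLIS1 had 58 and 70 counts against 1 and 3, and its relatives GLIS3 and GLIS2 were higher with log2 fold changes of 3.96 and 1.26. ZNF385D, POU3F3 and GTF2A1L had between 31 and 67 LGR5-high counts.

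Among the genes of cytoskeleton and intracellular signalling, CAPN6 had 411 and 461 counts in LGR5-high and 0 in both LGR5-negative libraries, at least 127-fold higher. It belongs to the calpain proteases but lacks the catalytic residue and is known for binding microtubules. Pig 95R was 1.17-fold above pig 88R (95% interval 1.02 to 1.34). Of the 10 other calpain genes tested, 2 were higher and 4 lower, with a median log2 fold change of -0.18, against 0.02 over all tested genes. With library size only it was 0.04, against 0.24. The call of CAPN8, one of the higher genes, was lost without LGR5-high of either pig or LGR5-negative of pig 95R (edgeR adjusted p between 0.0574 and 0.146). CAPN2, a widely expressed calpain, had 6364 and 6761 counts against 3730 and 3679 (log2 fold change 0.63). CAPN5 and CAPN12 were lower, with log2 fold changes of -2.35 and -1.98. CFAP100, a cilium protein, had 136 and 94 counts against 2 and 2, and TRIM9, a ubiquitin ligase known from neurons, had 88 and 61 against 2 and 0. The Ral activator gene RGL3, the microtubule-severing protein gene FIGN, the cGMP kinase substrate gene MRVI1 and RHPN1 had between 30 and 46 LGR5-high counts.

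The last classes held secreted defence and plasma proteins and other membrane proteins. SAA3, an acute-phase protein, had 38 and 80 counts against 2 and 0, and AMBP, the precursor of a plasma protease inhibitor, had 31 and 83 against 3 and 3. TFF3, a trefoil peptide of mucosal surfaces, had 32 and 31 against 1 and 0. UPK1B, a uroplakin of the bladder lining, had 35 and 96 counts against 0 and 0, and TMEM132E and TMEM200A had 73 and 77, and 66 and 64. The simple epithelial and gland list, whose sum was 224 and 193 CPM in LGR5-high and 39.4 and 45.9 CPM in LGR5-negative, had 5 of 6 tested genes higher and 0 lower. KRT8 (97.8 and 65.6 CPM in LGR5-high), FOXC1 (92.6 and 84.2) and KRT19 (28.1 and 35.9) carried most of that sum. KRT18 had 13 and 11 counts against 3 and 29 and was not called, and AQP5 had 13 and 22 against 2 and 2. The part of such cells in the counts of TFF3 and UPK1B was not tested. Of the little-characterised genes, CCDC175 had 69 and 101 counts against 0 and 0, VWA5B1 had 44 and 51 against 1 and 1, and CCDC184 had 39 and 34 against 3 and 3. CCDC184 had the smallest pooled ratio of the 75 genes with LGR5-negative counts, 10.6 (95% interval 4.64 to 29.8).

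Of the 24 LOC genes, RefSeq's Sscrofa11.1 annotation lists 16 as long noncoding RNAs, 7 as protein coding and 1 as a pseudogene. Long noncoding RNAs made up 17.2% of the 93 genes and 4.66% of the 13615 genes with 30 or more counts in both LGR5-high libraries. Over all 29837 named genes, most of them with fewer counts, the share of long noncoding RNAs was 18.8%. LOC symbols made up 25.8% of the 93 genes, 9.97% of the 13615 genes and 43.3% of all named genes. LOC102166005, protein coding, had 321 and 322 counts in LGR5-high and 0 in both LGR5-negative libraries, at least 93.3-fold higher. Its span overlaps that of ST6GAL2, a sialyltransferase gene with 1347 and 1386 counts against 9 and 11. LOC100622535, protein coding, had 82 and 87 counts against 1 and 0, and the noncoding LOC110260368 had 107 and 58 against 3 and 2 and overlaps the collagen gene COL11A1. The noncoding LOC110255418 and the protein-coding LOC100738087 had 50 and 83, and 57 and 42 counts, both against 0 and 0. The noncoding LOC110259473 (44 and 33 against 0 and 1) overlaps ADAMTS19, which also met the rule.

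The 2 pigs were compared within LGR5-high, a comparison the rule did not use beyond the minimum of 30 counts. Each pig gave 1 LGR5-high library, so the intervals below describe counting error and not variation among animals. Between the pigs, 53 of the 93 genes were higher in pig 95R and 40 were lower, and the median log2 ratio of pig 95R to pig 88R was 0.06 with quartiles of -0.38 and 0.45. The interval of the ratio lay above 1 for 21 genes, below 1 for 19 and held 1 for 53, and such intervals were not counted over all other genes. A difference over 2-fold was seen for 9 of the 93 genes (9.68%). It was seen for 1.54% of the 13522 other genes with 30 or more counts in both LGR5-high libraries. For the 5782 of these within the range of mean LGR5-high counts of the 93 genes (31.5 to 656) the share was 2.92%. Low counts scatter more, so other genes were also set beside them where the mean LGR5-high count was under 100, a limit chosen after the data were seen. In that range 6 of 77 of the genes (7.79%) and 73 of 1612 other genes (4.53%) differed over 2-fold, with a median of 55 and 59.5 counts. After ADRA2C, the highest ratios were 2.85 for UPK1B, 2.79 for AMBP and 2.32 for LOC106509271, and the lowest were 0.449 for CNTNAP4, 0.458 for CHRNA3, 0.513 for GABRG3 and 0.528 for CYP24A1. LGR5 itself was 1.42-fold higher in pig 95R (95% interval 1.37 to 1.48), and SOX9, a transcription factor of the outer root sheath, had a ratio of 0.862. In the classes where every gene was higher in pig 95R, the interval lay above 1 for ADRA2C, ADGRB1 and ADRA1B among the 5 G protein-coupled receptors, for UPK1B and LYPD1 among the 4 other membrane proteins, and for SAA3 and AMBP among the 3 defence proteins. It held 1 for the rest of these classes, with ratios such as 1.01 (95% interval 0.704 to 1.45) for TMEM200A and 1.01 (0.595 to 1.71) for TFF3. Both proton pump subunits were lower in pig 95R. All other classes went both ways, such as the 9 metabolic genes, with 6 higher in pig 95R and 3 lower.

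**Figure D4:**
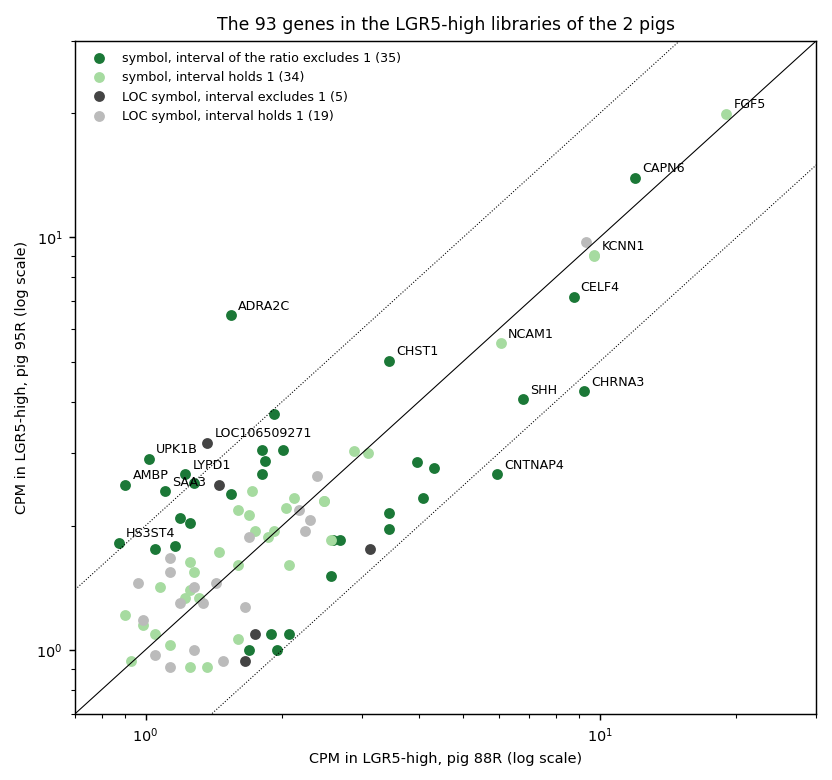
CPM of each of the 93 genes in the LGR5-high library of pig 95R against that of pig 88R (both log scales), with dark points where the 95% counting interval of the ratio excludes 1, and grey tones for LOC genes. The solid line marks equal levels and the dotted lines a 2-fold difference, and 9 genes lie outside the dotted lines, with ADRA2C at 4.20-fold the farthest.

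By shared symbol stem, 49 of the genes belonged to 43 families with 355 further genes. Of these relatives 231 could be tested, and 71 were higher (30.7%) and 48 lower (20.8%), with a median log2 fold change of 0.13. Over all tested genes the shares were 22.7% and 22.0%. Another 74 of the 355 relatives had 3 or fewer counts in every library.

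The genes next to the 93 on the chromosome were examined, since they were not used by the rule. On Sscrofa11.1, 90 of the 93 genes could be placed, and 175 other genes lay directly before or after one of them. Of the 84 neighbours that could be tested, 45 were higher in LGR5-high (53.6%) and 6 were lower (7.14%), and 42 of the 93 genes had a higher neighbour. The median log2 fold change of the neighbours was 0.53. Among all tested genes outside the 93 the shares were 22.3% and 22.1%, and among those with a mean CPM under the median 26.4% and 13.0%. Neighbours that share no span with one of the 93 gave 33 of 67 higher (49.3%) and 6 lower, and protein-coding ones among these gave 27 of 58 (46.6%). How much of these shares comes from the positions and how much from other features of the neighbours was not tested.

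**Figure D5:**
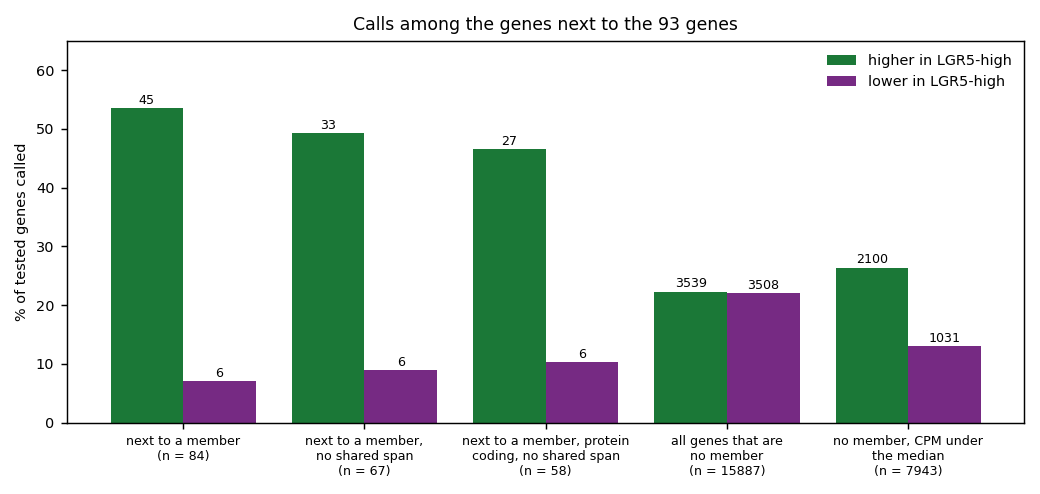
Percentage of tested genes called higher (green) or lower (purple) in LGR5-high by edgeR's quasi-likelihood test, for neighbours of the 93 genes and for all genes outside the 93, with the number of genes called above each bar and the number tested below. Of the neighbours 53.6% were higher, and 49.3% of those that share no span with one of the 93 genes, against 22.3% of all genes outside the 93.

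Several neighbours were genes of high count. RTN1, an endoplasmic reticulum protein gene that lies between CCDC175 and LOC100622535, had 3056 and 3172 counts in LGR5-high and 4 and 26 in LGR5-negative (log2 fold change 7.49 with a standard error of 0.433, edgeR adjusted p = 1.62e-04). GREM1, a secreted BMP antagonist next to SCG5, had 299 and 430 counts against 1 and 4 (log2 fold change 6.93). TSPAN8, a tetraspanin next to the noncoding LOC110260703, had 1823 and 1629 counts against 12 and 11. PAK3, a kinase next to CAPN6, had 867 and 826 counts against 42 and 45 (log2 fold change 4.08), while DCX on the other side of CAPN6 was not called. SLCO4A1, a transporter next to NTSR1, had a log2 fold change of 4.60, and KIF12 and ZNF618 on the sides of AMBP had 3.78 and 2.61. The 6 lower neighbours included RBM33 next to SHH (log2 fold change -0.44) and ARRDC2 next to KCNN1 (-1.19). The call of RBM33 was lost without LGR5-high of pig 95R (log2 fold change -0.30) and without LGR5-negative of pig 88R (-0.35). It was also lost with library size only (edgeR adjusted p = 0.204) and with upper quartile scaling (0.0603). Pairs of the 93 genes also lay near each other, with 10 pairs within 1 Mb. KCNB2 and TRPA1 were adjacent, ATP6V0D2 and CA3 were separated by 2 genes, FABP6 and ADRA1B by 4, and ADAMTS18 and CNTNAP4 by 7.

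Of the 93 genes, 32 shared part of their span with another gene, 22 of them with a symbol. The strand setting of the read counting is not given in the sources used here, so reads of overlapping genes cannot be told apart where the strands differ. For LOC102166005, ATP6V0A4, LOC110260368 and ACAN the overlapping gene was itself higher in LGR5-high. Likewise LOC110255861 overlaps COL4A2 and LOC102158261 overlaps PARM1, with log2 fold changes of 4.59 and 4.37. CCDC175 overlaps JKAMP, which had 634 and 605 counts against 478 and 554 and was not called, while CCDC175 had 0 counts in both LGR5-negative libraries. CTBS, also at 0 there, overlaps SPATA1, which had 116 and 113 counts against 77 and 99 and was not called. FGF5 overlaps LOC106508356, which had 22 and 20 counts against 0 and 1 and was called higher (log2 fold change 4.90, edgeR adjusted p = 0.00505).

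The rule was also applied with the populations exchanged, a check chosen after the data were seen. Only 2 genes had 3 or fewer counts in both LGR5-high libraries and 30 or more in both LGR5-negative libraries, or 0.0157% of the 12772 genes that reached 30 counts in both LGR5-negative libraries. The 93 genes were 0.683% of the 13615 genes that reached it in LGR5-high. Markers of the other population remained at unequal levels. KRT10, an interfollicular marker, had a mean of 2664 CPM in LGR5-high against 28818 CPM in LGR5-negative, while LGR5 had 2.44 CPM in LGR5-negative against 160 CPM in LGR5-high. How far this sets the numbers 93 and 2 was not tested. The 2 genes were PARVG, a parvin known mainly from blood cells, with 31 and 36 counts in LGR5-negative and 1 and 0 in LGR5-high, and LOC106507349, with 31 and 39 against 1 and 3.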

How the data were processed

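The 4 libraries (poly(A)-selected RNA, Illumina sequencing) are 1 LGR5-high and 1 LGR5-negative sample from each of 2 pigs. The deposited values are raw read counts of each gene symbol, without normalization by the authors. The submitters' processing notes name Trimmomatic 0.36, STAR 2.5.2b and featureCounts of Subread 1.5.2, and the genome build, annotation and strand setting are not given in the sources used here. The entry without a gene name (0.36% to 0.626% of the counts of a library) was left out.

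The 93 genes were found by the thresholds of 3 and 30 raw counts. They, their classes and the gene lists were chosen with earlier results of these data known. The lists of V-ATPase, HS3ST, nicotinic, GABA and opioid receptor genes were added once the 93 genes were known. Named with counts were the highest in CPM of all, in each class, at 0 counts and among LOC genes, those at the extremes of the pig ratio and at the thresholds, neighbouring pairs and list members, and further genes of a class or neighbours were named after their values were seen.

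Other genes were tested with edgeR 4.0.16 (quasi-likelihood test, TMM factors from 0.919 to 1.08, filterByExpr with a minimum count of 10 and total of 15, prior count 0.125, Benjamini-Hochberg adjustment), and Student's t-test, which the study names, here taken on log2(CPM + 1), and DESeq2 1.42.0 were alternatives. On simulated counts with a 4-fold change, edgeR recovered 178 of 185 changed genes over 15913 genes, and Student's t-test recovered 0. The simulated counts had the same dispersion for every gene and no difference between pigs, unlike these data. These numbers therefore check the code and do not measure how well the test works here. P-values of the main fit rest on the spread between the 2 libraries of a population, moderated over all tested genes, and reach no further than these 2 pigs. An exact permutation test of 2 against 2 libraries that ignores pairing cannot go below 0.333. The same pig gave both populations, so libraries are paired, and their deviations had a correlation of 0.422 over 15980 genes. The main fit leaves this pairing out, and the fits with the pig as a replicate block use it. Biotypes, neighbours and overlaps were read from RefSeq's Sscrofa11.1 by symbol (29837 of 29837 matched), without coordinates, since the build of the files is not named. Sequences were not used here. Values of some genes are not reported here.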

Additional observations from a re-analysis of the deposited data

How the results depend on the processing

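The number of members depends on the thresholds. It was 93 as defined, 18 with 0 counts in LGR5-negative, 300 with 10 or fewer counts, 298 with 10 or more counts in LGR5-high, 10 with 100 or more, and 55 on counts scaled with TMM, under which 3 counts in LGR5-negative exceed 3 by construction. Without replicate 88R it was 165, and without replicate 95R 238. With the populations exchanged the number was 2, and 0, 46, 51 and 0 under the first 4 changes, with 38 and 10 from a single pig.

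For all tested genes, 3632 were higher and 3508 lower. With library size only these were 5473 and 2326 (70.2% of calls higher, against 50.9%), and the median of all genes moved from 0.02 to 0.24. Student's t-test gave 544 and 502, with 3262 and 3129 at an unadjusted p under 0.05. Leaving out 1 library gave 2279 to 3169 higher and 2139 to 3004 lower, with 2279 and 2139 without LGR5-high of pig 95R and 2340 higher without that of pig 88R. With the pig as a replicate block, 4562 were higher and 4342 lower, all 93 genes and 48 neighbours were called higher, and the 69 named genes outside the 93 tried under each alternative kept their calls, while other calls and list counts that the block changed stand beside their results. Student's t-test called 32 of the 93 genes and 10 neighbours, DESeq2 with the block 78 and 41, and leaving out 1 library left 34 to 42 neighbours. None of the 69 named genes changed direction, and between 0 and 11 of them lost their call under alternatives other than the t-test, which lost 53. These 69 genes were all called by the main fit, and other genes named outside the 93 are not in these numbers. Among those others, NEFL changed direction without LGR5-high of pig 95R (log2 fold change -1.75, against 2.14). ATP6V0D1 changed direction with library size only (0.21, against -0.02). Counts of 30 to 60 leave wide intervals, and depth does not separate absence from a level under 3 counts.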
